A study of Homo sapiens with 23 samples.

Results

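A group of 10 genes that epithelial cells use to call in leukocytes and to restrain that call were followed across 13 MCF10A cell lines. They were taken from the deposited expression table by gene symbol, and all 10 were found among its 58358 genes. They comprise the chemokines CXCL1, CXCL2, CXCL3, CXCL5, CXCL8 and CCL20, the cytokines IL6 and LIF, and the feedback genes NFKBIA and TNFAIP3. MCF10A is a non-transformed human mammary epithelial line. Of the lines, 10 were transduced with a V5-tagged missense p53 protein. Of these, 4 carry a substitution at a DNA contact residue (R248Q, R248W, R273C and R273H) and 6 a structural one (Y163C, R175H, H179R, Y220C, Y234C and G245S). The 3 controls are the parental line WT, the knock-down line WTKD and the line WTOE, which is labelled as overexpressing V5-tagged wild-type p53. The cells were untreated, and all were grown with horse serum, epidermal growth factor, hydrocortisone, cholera toxin and insulin. Each line has 1 RNA library, and V5 peak lists exist for 5 lines, so no spread within a line is known and p-values measure the spread between lines. The mutants were carried by a different lentiviral vector from WTOE, and WTKD was made with shRNA constructs. No control is described as carrying the vector of the mutants. Vector and mutation therefore cannot be told apart in any comparison of mutants with controls. The mutant lines are derivatives of 1 parental line.

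Epithelial cells make these chemokines when the transcription factor NF-kB enters the nucleus, usually after interleukin-1, tumour necrosis factor or a microbial product has engaged its receptor. CXCL1, CXCL2, CXCL3, CXCL5 and CXCL8 attract neutrophils through the receptors CXCR1 and CXCR2, and CCL20 attracts CCR6-bearing lymphocytes and dendritic cells. IL6 and LIF signal through the shared receptor chain gp130 to STAT3. NFKBIA encodes the inhibitor IkB alpha, which holds NF-kB in the cytoplasm, and TNFAIP3 encodes the ubiquitin-editing enzyme A20. Both inhibitors are induced by NF-kB and close a negative feedback loop.

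All 5 CXC genes lie in 1 cluster on chromosome 4, in the order CXCL8, CXCL1, CXCL5, CXCL3 and CXCL2 (GRCh38, chr4:73740519-74099196). RefSeq start site windows, which reach from 250 bases before to 50 after a gene's start on GRCh38.p14, were at hand for 9 of the 10 genes, all but LIF. They are shown because the members share more than a name there. The stretches below are 30 bases long and read 5′ to 3′ on the strand of the gene. Capitals mark matches on either strand to the NF-kB consensus or, in CXCL8, to the 9-letter core GGAATTTCC.
CXCL1: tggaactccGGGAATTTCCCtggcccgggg
CXCL2: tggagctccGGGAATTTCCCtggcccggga
CXCL3: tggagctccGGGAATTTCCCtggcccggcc
CXCL5: atgagttcaGGGAATTTCCCcagcatccca
CXCL8: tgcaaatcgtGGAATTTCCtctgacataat
CCL20: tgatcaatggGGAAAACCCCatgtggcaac
IL6: tatcaaatgtGGGATTTTCCcatgagtctc
NFKBIA: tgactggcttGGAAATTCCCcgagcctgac
TNFAIP3: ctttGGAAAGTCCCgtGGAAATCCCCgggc

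The CXC stretches lie at chr4:73869305-73869334 (CXCL1, plus strand), chr4:74099253-74099282 (CXCL2, minus), chr4:74038748-74038777 (CXCL3, minus), chr4:73998748-73998777 (CXCL5, minus) and chr4:73740468-73740497 (CXCL8, plus). The others lie at chr2:227813753-227813782 (CCL20, plus), chr7:22727117-22727146 (IL6, plus), chr14:35404811-35404840 (NFKBIA, minus) and chr6:137867188-137867217 (TNFAIP3, plus). In each, the marked letters lie within 100 bases upstream of the RefSeq start. The consensus was found in 8 of these 9 windows, all but CXCL8, and in 11.3% of the 35116 RefSeq windows. Because CXCL8 lacks it, the core was searched as well, after the sequences had been seen. The core is the CXCL1 match without its first base, so its presence in CXCL1 was fixed in advance. It occurs in 6 of the 9 windows (CXCL1, CXCL2, CXCL3, CXCL5, CXCL8 and NFKBIA) and in 0.461% of all windows. CXCL1, CXCL2 and CXCL3 are close copies there, so these matches are not independent and their share cannot be read against that of all windows. The core lies inside the consensus match in 5 of these 6. The AP-1 motif TGANTCA was found in CXCL8 alone among the 9, and in 7.71% of all windows. The motif TATAAA was found in CXCL8, CCL20 and NFKBIA, and in 11.5% of all windows. Every search covered both strands, and a match describes letters, not binding.

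CXCL1, CXCL2 and CXCL3 are close copies of each other also outside the site. From 120 to 2 bases before the start, CXCL1 shared 93.3% of aligned positions with CXCL2 and 90.8% with CXCL3, against 51.5% with CXCL5 and 42.4% with CXCL8. The stretches of CXCL1 (chr4:73869273-73869391) and CXCL2 (chr4:74099197-74099315) are printed to show how far the likeness runs, with the matched site in capitals.
CXCL1: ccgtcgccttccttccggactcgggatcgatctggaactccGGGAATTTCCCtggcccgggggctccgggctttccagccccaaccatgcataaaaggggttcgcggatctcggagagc
CXCL2: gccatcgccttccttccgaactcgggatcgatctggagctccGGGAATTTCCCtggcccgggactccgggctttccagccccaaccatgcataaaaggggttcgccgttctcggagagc

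Copies this close can share reads. Of all windows of 75 bases, the read length, in the longest annotated transcript, 0.3% of those of CXCL1, 2.5% of those of CXCL2 and 1.5% of those of CXCL3 occurred unchanged in another gene of the group. No such window was found for CXCL5 or CXCL8. A single read of these stretches cannot be placed on 1 gene by itself. The reads were paired, and whether the mates place them was not examined. How far this affects the levels of CXCL1, CXCL2 and CXCL3 is therefore unknown.

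Levels are given as log2(TPM+1). TPM, a relative abundance of transcripts within a library, is scaled by gene length, so that levels of different genes can be compared. A gene counted as tested when its level was at least 1 in at least 3 lines, which 14884 genes and 9 of the 10 members met. CXCL5 did not. Each library held between 12122 (R273H) and 15975 (Y163C) genes above 0. Of the genes tested, 24.8% were listed at 0 in R273H, the largest share of the 13 libraries. Y234C, at 22.9%, and the control WT, at 22.4%, came next. A value of 0 is thus common in these libraries. Read depth is unknown, and the study's methods describe a high share of duplicate reads. The library of WTOE is named below by its label only.

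CXCL1 (ENSG00000163739), the neutrophil chemokine also known as GRO alpha, reached the highest level of the 10 genes. It read 12.53 in R248Q, 7.03 in R248W, 5.46 in R273C and 6.12 in R273H. The structural lines read 8.32 in Y163C, 9.67 in R175H, 8.5 in H179R, 10.80 in Y220C, 8.14 in Y234C and 5.68 in G245S. The controls read 5.42 in WT, 6.15 in WTKD and 7.59 in the library labelled WTOE. R248Q and Y220C stood highest, and 6 of the 10 mutant lines lay above the highest control. On the linear scale these 2 lines held 5918 and 1777 TPM, and CXCL1 was the transcript of rank 14 in R248Q and of rank 54 in Y220C. In WT it had rank 3698, at 41.8 TPM. It was the highest of the 8 ligands in 11 of the 13 lines, while CCL20 led in R273C and G245S. In R248Q, CXCL1 made up 96.09% of the summed TPM of all 10 genes, against 9.67% in R273C.

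CXCL2 (ENSG00000081041), which encodes the neighbouring neutrophil chemokine, ran lower. It read 5.53 in R248Q, 2.15 in R248W, 3.58 in R273C and 0 in R273H. The structural lines read 5.74 in Y163C, 3.69 in R175H, 4.34 in H179R, 7.87 in Y220C, 2.13 in Y234C and 2.38 in G245S. The controls read 3.76 in WT, 5.05 in WTKD and 1.55 in the library labelled WTOE. Y220C stood highest by more than 2 units, Y163C and R248Q followed, and all 3 lay above the controls. In TPM, CXCL1 exceeded CXCL2 in every line, at 1777 against 233.5 in Y220C and at 5918 against 45.3 in R248Q.

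CXCL3 (ENSG00000163734), the third close copy, was listed at 0 in 8 of the 13 lines, all controls included. It read 5.07 in Y220C, 2.16 in R248Q, 2.02 in H179R, 1.96 in R248W and 1.06 in Y163C. The 5 lines in which it was seen are all mutants, 2 contact and 3 structural. CXCL5 (ENSG00000163735), whose product binds CXCR2, was listed at 0 in 12 lines and read 0.90 in Y220C, or 0.862 TPM.

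CXCL8 (ENSG00000169429), the human neutrophil chemokine interleukin-8, read 3.57 in R248Q, 3.86 in R248W, 2.94 in R273C and 0 in R273H. The structural lines read 4.96 in Y163C, 3.86 in R175H, 3.89 in H179R, 5.34 in Y220C, 1.14 in Y234C and 0 in G245S. The controls read 0.76 in WT, 4.40 in WTKD and 2.46 in the library labelled WTOE. Y220C and Y163C alone exceeded the highest control, and the contact and structural lines overlapped. CXCL8 did not follow CXCL1 in R248Q, where CXCL1 had its highest level and CXCL8 was at its median of 3.57 over the 13 lines.

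CCL20 (ENSG00000115009, chr2:227805739-227817564), the ligand of CCR6, followed another order. It read 1.79 in R248Q, 4.56 in R248W, 7.08 in R273C and 5.90 in R273H. The structural lines lay close together, at 6.82 in Y163C, 5.25 in R175H, 5.79 in H179R, 6.64 in Y220C, 4.83 in Y234C and 6.0 in G245S. The controls read 3.61 in WT, 5.98 in WTKD and 0.48 in the library labelled WTOE. R273C stood highest and that of WTOE lowest, and R248Q, the line highest in CXCL1, was the lowest of the mutants.

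**Figure D1:**
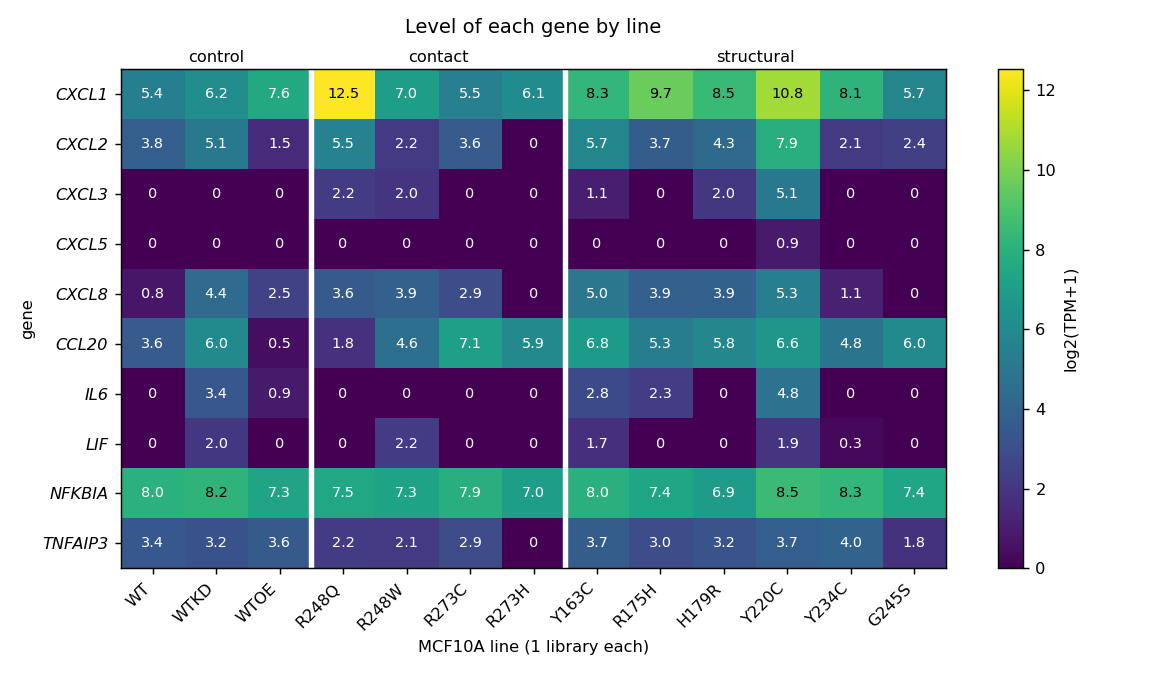
Level of each of the 10 genes (vertical) in each of the 13 lines (horizontal), as log2(TPM+1), with the value printed in each cell and white lines between the controls, the contact mutants and the structural mutants. CXCL1 is brightest in R248Q at 12.5 and in Y220C at 10.8, and CXCL3, IL6 and LIF are each listed at 0 in 8 lines.

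IL6 (ENSG00000136244, chr7:22725884-22732002), the gp130 cytokine of the acute phase response, was seen in 5 lines. It read 4.79 in Y220C, 3.38 in WTKD, 2.83 in Y163C, 2.28 in R175H and 0.91 in the library labelled WTOE. All 4 contact lines were listed at 0, as were H179R, Y234C, G245S and WT. LIF (ENSG00000128342, chr22:30240453-30246759), the leukaemia inhibitory factor, was also seen in 5 lines. It read 2.19 in R248W, 2.05 in WTKD, 1.91 in Y220C, 1.74 in Y163C and 0.27 in Y234C. WTKD, Y163C and Y220C were the 3 lines with both cytokines.

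NFKBIA (ENSG00000100906, chr14:35401079-35404749) was high and even. It read 7.46 in R248Q, 7.26 in R248W, 7.93 in R273C and 6.96 in R273H. The structural lines read 7.95 in Y163C, 7.43 in R175H, 6.90 in H179R, 8.53 in Y220C, 8.29 in Y234C and 7.37 in G245S. The controls read 8.00 in WT, 8.15 in WTKD and 7.34 in the library labelled WTOE. Y220C was again highest, but the whole range was 1.63 on the log2 scale. The SD over the 13 lines was 0.52, and 6.05% of tested genes had a smaller one. CXCL1 had an SD of 2.19, which 98.95% of tested genes did not reach, and the median SD of tested genes was 0.95. In 7 lines NFKBIA was the most abundant of the 10 genes, and in the other 6 lines CXCL1 was.

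TNFAIP3 (ENSG00000118503, chr6:137867214-137883314) read 2.16 in R248Q, 2.11 in R248W, 2.92 in R273C and 0 in R273H. The structural lines read 3.70 in Y163C, 2.96 in R175H, 3.24 in H179R, 3.72 in Y220C, 4.01 in Y234C and 1.83 in G245S. The controls read 3.43 in WT, 3.17 in WTKD and 3.56 in the library labelled WTOE. All 4 contact lines lay below all 3 controls, while the structural lines lay on both sides of them. TNFAIP3 was the only 1 of the 9 tested members so placed, and 4.05% of all tested genes were placed that way. This view was chosen after the values had been seen.

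The first question of the design was whether the 10 mutant lines differ from the 3 control lines. No member passed an adjusted p of 0.05 (limma, Benjamini-Hochberg over all genes tested), and 3 of 14884 genes did (0.0202%). Without adjustment 0 of 9 members and 719 genes had p under 0.05. CCL20 came nearest, at 5.47 ± 1.53 (SD, n = 10) in mutants and 3.36 ± 2.76 (SD, n = 3) in controls, a difference of 2.11 on the log2 scale (standard error 1.03, adjusted p = 0.932, limma). Single controls moved that difference, to 0.67 without WTOE and to 3.42 without WTKD. CXCL1 averaged 8.22 ± 2.29 (SD, n = 10) against 6.39 ± 1.10 (SD, n = 3), 1.84 higher (standard error 1.19, adjusted p = 0.932, limma). The mutant mean was above the control mean for 5 of the 9 tested members and for 6693 of all 14884 genes. The median difference was 0.29 over the 9 and -0.08 over all tested genes. TNFAIP3 lay the other way, at 2.67 ± 1.20 (SD, n = 10) against 3.39 ± 0.20 (SD, n = 3), with an adjusted p of 0.932 (limma). For the remaining tested members the adjusted p was between 0.932 and 0.995. The spread between mutant lines exceeded the difference of means for 8 of the 9, all but CCL20. A p over the threshold does not show that the groups are alike, and vector and mutation cannot be told apart in this comparison.

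The second question was whether contact and structural mutants differ. No member passed, and neither did any other gene (0 of 14884, 0%, limma). Without adjustment 1 member and 734 genes had p under 0.05. That member was TNFAIP3, at 1.80 ± 1.26 (SD, n = 4) in contact and 3.24 ± 0.79 (SD, n = 6) in structural lines, a difference of -1.44 (standard error 0.62, adjusted p = 0.96, limma). Without R273H, where TNFAIP3 was listed at 0, the difference was -0.84 and the unadjusted limma p was 0.146. CXCL2 averaged 2.82 ± 2.33 (SD, n = 4) against 4.36 ± 2.17 (SD, n = 6), a difference of -1.54 with a standard error of 1.16, which was -0.60 without R273H, -2.45 without R248Q and -0.84 without Y220C. CCL20 averaged 4.83 ± 2.27 (SD, n = 4) against 5.89 ± 0.77 (SD, n = 6), and the difference of -1.06 was -0.04 without R248Q and -1.81 without R273C. The mean of all 9 tested members was lower in the contact lines, with a median difference of -0.74 against 0.005 over all genes tested. Of all 14884 genes, 7491 had the higher mean in the contact lines. R273H, listed at 0 for 6 of the 9, is among the 4 contact lines. Without R273H or without R273C the contact mean was lower for 6 of the 9, without Y220C for 7, and without R248Q or Y163C for 8. It was lower for all 9 without any 1 of R248W, R175H, H179R, Y234C or G245S. With the number of genes detected as a covariate it was also lower for all 9. Without both R273H and Y234C only LIF changed sign, to 0.001. The source of the lower contact means was not tested. Of the 12 mammary epithelial markers, 10 were also lower in the contact lines, with a median difference of -0.76. TP63 differed by -3.11, CDH1 by -2.40 and KRT17 by -1.97, and none of the 12 passed (limma). Their part in the member differences was not tested.

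**Figure D2:**
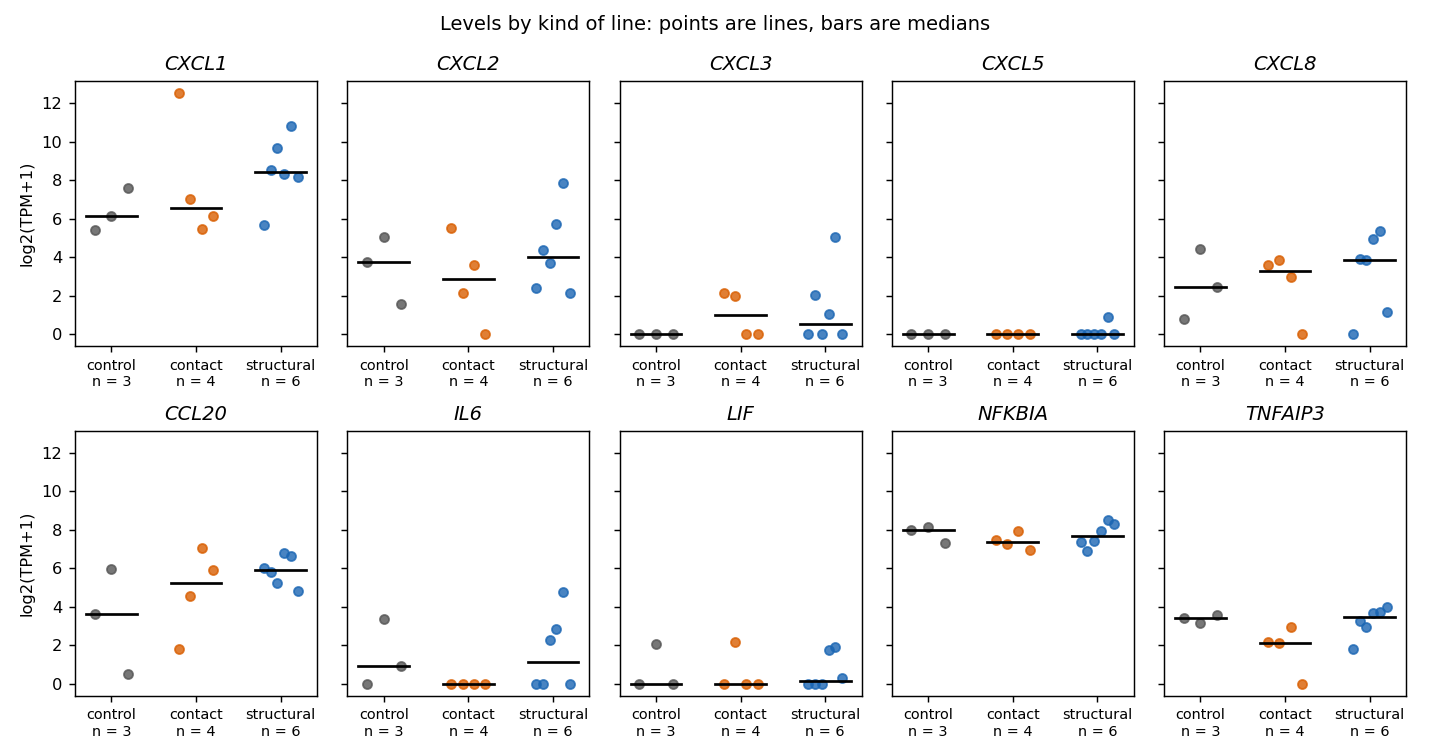
Level of each gene as log2(TPM+1), with 1 point per line and a bar at the median of the 3 control, 4 contact and 6 structural lines. The 3 groups overlap for each gene except that the contact lines of TNFAIP3, at 2.92 or lower, lie below the controls, at 3.17 or higher.

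Single lines were then set against the rest. A member was counted when its level was at least 2 log2 units, or 4-fold in TPM plus 1, from the median of the other 12 lines. In Y220C 5 of the 9 tested members were that much higher, against 5.28% of all tested genes. These were CXCL1 by 3.49, CXCL2 by 4.24, CXCL8 by 2.08, and CXCL3 and IL6, whose medians in the other lines were 0. Y220C held the highest level of 6 of the 10 genes (CXCL2, CXCL3, CXCL5, CXCL8, IL6 and NFKBIA), and was the only line with all 10 above 0. Detection was high in that library, with 15602 genes above 0. Of tested genes 9.49% were listed at 0 there, against 8.75% in Y163C, the lowest share, and 24.8% in R273H. The share of all genes that were highest in Y220C was not counted. The 8 ligands summed to 2212 TPM there, and to 5980 TPM in R248Q, nearly all of it CXCL1. In the other lines the sum lay between 66.25 TPM in WT and 879 TPM in R175H. As each line has 1 library, these departures carry no test.

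In R248Q 2 members were at least 2 higher, against 6.67% of tested genes. CXCL1 was 5.22 above the median of the others, and CXCL3 was seen at 2.16. CCL20 alone was lower there, by a difference of -4.05, against 2.83% of tested genes. In Y163C 2 members were higher (CXCL2 and IL6, background 5.1%), in R175H 2 (CXCL1 and IL6, background 4.29%) and in WTKD 2 (IL6 and LIF, background 5.58%). Members at least 2 lower numbered 3 in R273H (CXCL2, CXCL8 and TNFAIP3, each listed at 0), where 14.3% of tested genes were that low. They numbered 3 in WT (CXCL1, CXCL8 and CCL20, background 5.6%), 2 in the library labelled WTOE (CXCL2 and CCL20, background 4.26%) and 2 in G245S (CXCL1 and CXCL8, background 2.26%). A single member was higher in R248W (LIF, background 5.68%) and in H179R (CXCL3, background 5.93%). A single member was lower in R273C (CXCL1, background 1.06%) and in Y234C (CXCL8, background 16.1%). In R273H 6 of the 9 tested members were listed at 0, against the 24.8% of all tested genes given above.

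**Figure D3:**
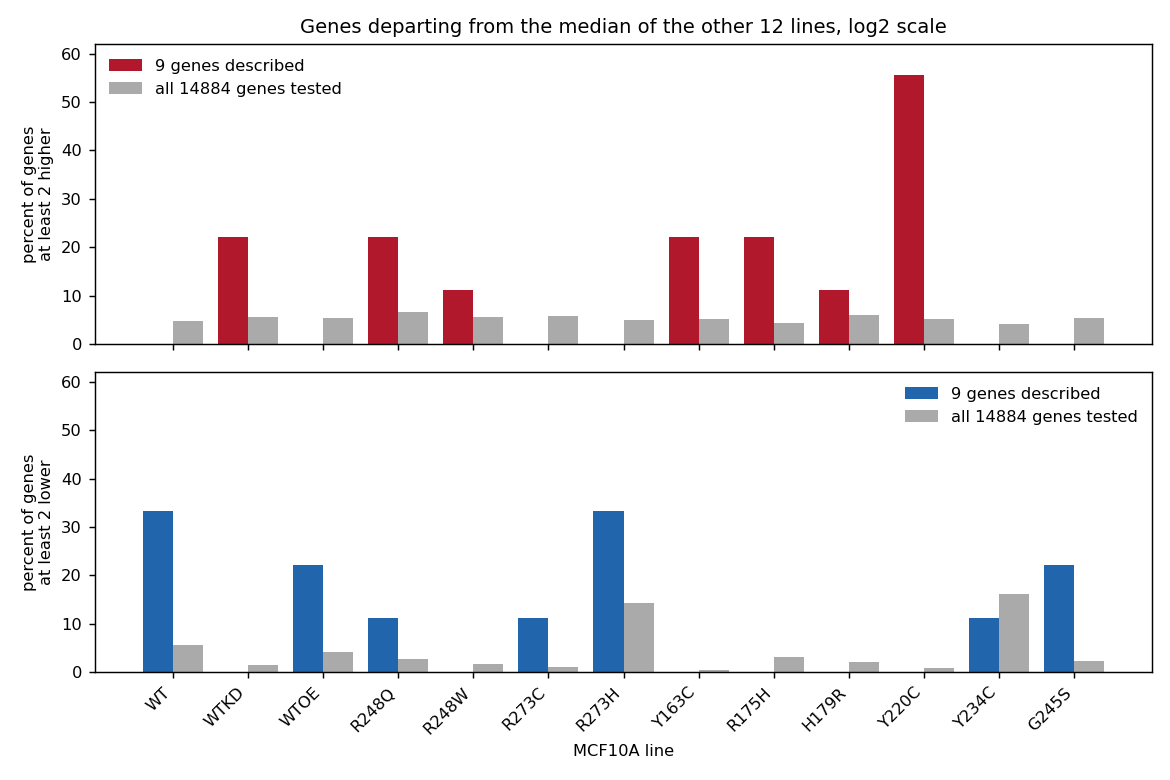
Percent of the 9 tested members (coloured bars) and of all 14884 tested genes (grey bars) at least 2 log2 units above (upper panel) or below (lower panel) the median of the other 12 lines, for each line. Y220C has the tallest coloured bar, 5 of 9 members against 5.28% of all genes.

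Markers of cell types were read beside these departures. All 12 mammary epithelial markers were tested genes, and their summed TPM ranged from 2820 to 3650 in contact, 3190 to 6180 in structural and 2920 to 5340 in control lines. KRT5 was present in all 13 lines, between 9.97 and 11.85. CDH1, the epithelial cadherin, read 0.96 in R248Q and 0.25 in R273H, against 4.47 or more in the other 11 lines, and EPCAM was also lowest in R248Q, at 2.53. KRT14 (8.23), KRT8 (7.83) and ITGB4 (7.76) were highest in R248Q, where 1 of the 12 markers was at least 2 above the median of the other lines and 3 were at least 2 below. In R273H 7 of the 12 were that much lower, and in Y220C KRT14 alone was that much higher. Of 13 leukocyte markers 2 were tested genes, CD14 and CSF1R, and 8 were listed at 0 in all lines, PTPRC, CD3E and ITGAM among them. Their sum was 7.64 TPM in Y220C and 11.9 TPM in R248Q, inside the range of 4.62 to 58.5 TPM of the controls. The contact lines ranged from 4.26 to 12.5 TPM and the structural lines from 6.14 to 29.2 TPM. Of 8 fibroblast markers 4 were tested genes. Their sum was 76.8 TPM in Y220C and 63.6 TPM in R248Q, the highest of the structural and of the contact lines, against 5.14 to 45.4 TPM in the controls. The lowest contact and structural sums were 2.57 and 4.66 TPM, and DCN read 5.59 in Y220C and 5.56 in R248Q. Of the remaining tested fibroblast markers, LUM read 0.79 in Y220C and 3.36 in R248Q, FAP 4.90 and 3.01, and COL1A1 0 and 0.11. These were highest elsewhere, LUM (3.64) and COL1A1 (1.76) in H179R and FAP (5.19) in WTKD. COL1A2 was at 0 in all lines, and COL3A1 in all but Y163C. Endothelial markers summed to at most 6.13 TPM, with VWF at 0 throughout. The part of these markers in the chemokine levels was not tested. In RNA of whole cultures, fewer cells that make a transcript and less of it per cell cannot be told apart.

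Both contact residues were each replaced in 2 ways. R248Q and R248W differed in CXCL1 by 5.51, in CXCL2 by 3.38 and in CCL20 by -2.77, R248Q being the higher in both CXC genes. The gap in CXCL1 was wider than that of 99.8% of tested genes. TNFAIP3 and NFKBIA were 0.05 and 0.20 higher in R248Q, CXCL8 differed by -0.29, and LIF, listed at 0 in R248Q, by -2.19. R273C exceeded R273H in CCL20 by 1.18 and in NFKBIA by 0.97, while CXCL1 differed by -0.66 and the median gene was 0.78 higher in R273C. CXCL2 (3.58), CXCL8 (2.94) and TNFAIP3 (2.92) were present in R273C and listed at 0 in R273H. With 1 library on each side, none of these gaps has an error.

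Over the 13 lines the members varied together to a moderate degree. Pearson's r was positive in 34 of the 36 pairs of tested members (94.4%), with a median of 0.44. Over all pairs of tested genes 61.4% were positive, with a median of 0.11. Among the 4 CXC genes CXCL1, CXCL2, CXCL3 and CXCL8 it was positive in all 6 pairs, from 0.55 for CXCL1 with CXCL8 to 0.76 for CXCL2 with CXCL8. Without Y220C these 6 values ran from 0.40 to 0.71, 28 of the 36 member pairs were positive with a median of 0.27, and 61.5% of all gene pairs were positive. Both inhibitors went together (NFKBIA with TNFAIP3, r = 0.64, rho = 0.63), and so did IL6 with LIF (r = 0.65, rho = 0.47). CXCL8 went with IL6 (r = 0.68) and with LIF (r = 0.64). CCL20 stood aside, at -0.27 with CXCL1 and -0.06 with TNFAIP3, and no higher than 0.335 with any member. The points are single libraries that share depth, the scaling to 1000000 TPM and, for several genes, values of 0, and r describes these 13 lines only.

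**Figure D4:**
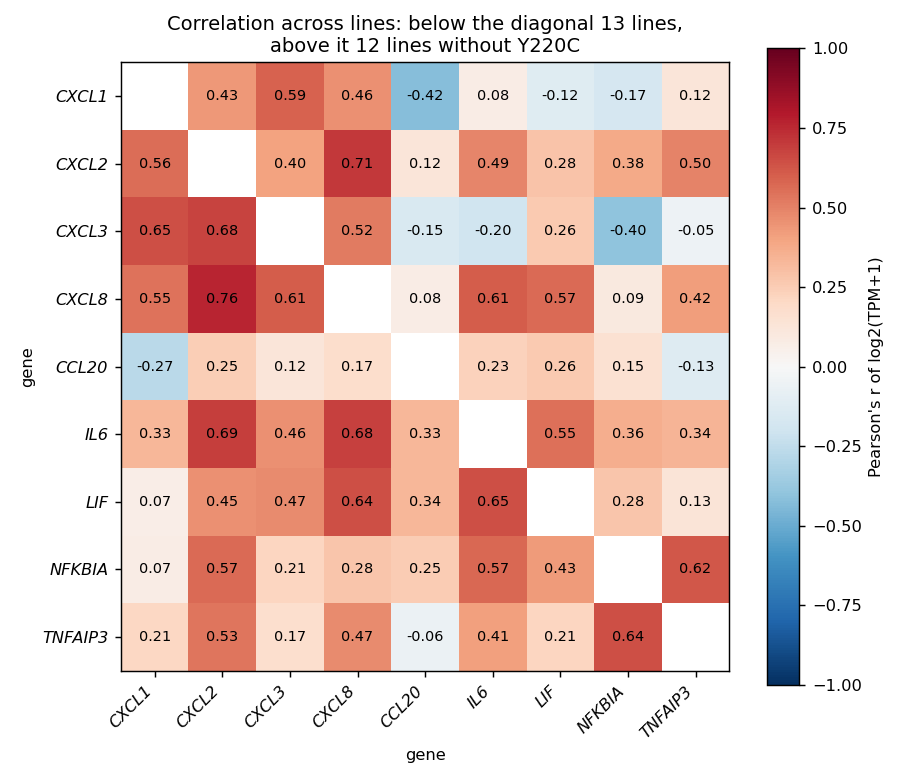
Pearson's r of log2(TPM+1) between each pair of the 9 tested genes, over 13 lines below the diagonal and over 12 lines without Y220C above it, from blue (-1) to red (1). The CXC genes are positive with each other on both sides. CCL20 is negative with CXCL1 on both, at -0.27 and, without Y220C, -0.42. NFKBIA with CXCL3 falls from 0.21 to -0.40 without Y220C.

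Genes of the most similar pattern were looked up among all tested genes. Most like the mean standardised level of the 4 CXC genes over 13 lines were SLCO2A1 (r = 0.91), which encodes a prostaglandin transporter, DNAL1 (0.88), CLEC2D (0.88), PCSK1N (0.88) and GCSH (0.86). SLCO2A1, CLEC2D, PCSK1N and GCSH were listed at 0 in 4, 1, 9 and 6 lines. For single members the closest were PTGFR, a prostaglandin receptor, with CXCL1 (r = 0.89), AC093673.1 (0.84) and DEPP1 (0.84). PTGFR, AC093673.1 and DEPP1 were listed at 0 in 7, 8 and 10 lines. CXCL2 was closest to CLEC2D (0.91), ING1 (0.88) and GCSH (0.86), and CXCL3 to PARM1 (0.92), AL138721.1 (0.89) and KLHL42 (0.89). Without Y220C the r of PARM1, AL138721.1 and KLHL42 with CXCL3 was 0.77, 0.70 and 0.67. PARM1 and AL138721.1 were listed at 0 in 6 and 10 lines. CXCL8 was closest to CXorf56 (0.91), DNAL1 (0.91) and ACYP1 (0.91), and CCL20 to ACTR6 (0.86), the metallothionein gene MT1X (0.85) and ACTL6A (0.83). For IL6 the closest were AC090833.1 (0.94), NIFKP1 (0.94) and AP002336.1 (0.91), and for LIF AC010320.4 (0.95), TCEA1P4 (0.94) and PFN4 (0.89). The 3 like IL6 were listed at 0 in 8, 6 and 10 lines, and the 3 like LIF in 8, 9 and 8. NFKBIA was closest to C6orf47 (0.81), RPS4XP13 (0.806) and RPL18P13 (0.805). TNFAIP3 was closest to MIR205HG (0.91), HMGCS1 (0.91), an enzyme of cholesterol synthesis, and RRP8 (0.90). With 14884 genes and 13 points, an r of this size is a description of likeness only.

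Receptors for the CXC ligands and CCL20 were mostly listed at 0 in these cells. CXCR2 and CCR6 were listed at 0 in all 13 lines, and CXCR1 in all but R248W (2.55) and Y220C (0.23). ACKR1, the decoy receptor that binds several of these chemokines, was seen in 10 lines. It was highest in R248Q (6.55), which was also highest in CXCL1, and read 4.50 in Y220C. Its mean was 3.08 ± 2.03 (SD, n = 10) in mutants, while the controls read 0.37 in WT, 0 in WTKD and 0.74 in the library labelled WTOE. The difference did not pass (adjusted p = 0.888, limma). The cytokine side was present, with IL6ST (gp130) between 4.11 and 7.26, OSMR between 4.97 and 7.50, and IL6R and LIFR above 0 in all 13 lines. Of the 21 receptors listed, 15 were tested genes and 0 passed in either comparison. Mutant means were above control means for 11 of the 15, with a median difference of 0.14, against 6693 of 14884 and -0.08 over all genes. The largest differences after ACKR1 were those of IL1R1 (1.25) and TLR3 (0.60), and between contact and structural lines those of ACKR1 (1.87), TLR1 (0.83) and IL17RA (0.67). In Y220C 2 of the 15 were at least 2 above the median of the other lines (ACKR1 and IL1R1, background 5.28%), and 0 were that much lower. IL1R1 was highest there, at 6.17. In R248Q 2 were that much higher (ACKR1 and TLR1, background 6.67%) and 0 lower.

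Of the 21 genes of the NF-kB machinery itself, 20 were tested and 0 passed in either comparison. The subunits NFKB1 (4.97 to 6.68) and RELA (4.83 to 7.06) were present in every line. NFKB2, the subunit of the alternative pathway, averaged 3.24 ± 0.87 (SD, n = 10) in mutants and read 0 in WT, 2.57 in WTKD and 1.91 in the library labelled WTOE, with an adjusted p of 0.823 (limma). NFKBIZ and RELB differed by -0.95 and 0.88 (mutant minus control). RELB, which pairs with the NFKB2 product, was 0.37 ± 0.42 (SD, n = 4) in contact and 2.5 ± 1.16 (SD, n = 6) in structural lines, a difference of -2.14 (adjusted p = 0.96, limma), and R175H was highest at 4.81. NFKBIZ and BCL3, nuclear relatives of the inhibitors, differed by -1.62 and -1.33 in the same direction. In Y220C BCL3, at 6.72, was alone of the 20 at least 2 above the median of the other lines (background 5.28%). NFKBIE, listed at 0, was alone at least 2 below it (background 0.833%). In R248Q REL alone stood apart by that much, being higher at 6.04 (background 6.67%).

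A list of 28 other NF-kB target genes held 17 tested genes, of which 0 passed in either comparison. The median difference between mutants and controls was 0.63, with 11 of 17 positive, against -0.08 and 6693 of 14884 over all genes. ICAM1, the leukocyte adhesion molecule, averaged 3.96 ± 1.13 (SD, n = 10) against 2.32 ± 1.28 (SD, n = 3) with an adjusted p of 0.932 (limma). SAA2, an acute phase protein, differed by 1.61 and IL1A by -1.55. IL1B, itself an inducer of these chemokines, read 0.40 in R248Q and 0 in the other 3 contact lines. The structural lines read 3.97 in Y163C, 3.79 in R175H, 4.34 in H179R, 1.98 in Y220C, 1.91 in Y234C and 4.52 in G245S. The difference of -3.32 had the largest size of the list and did not pass (standard error 0.60, adjusted p = 0.274, limma). LCN2 (1.58) and CSF3 (-1.52) followed. In Y220C 2 of the 17 were at least 2 higher (SOD2 and TNIP3, background 5.28%). IL1A read 3.89 in R248Q, the line highest in CXCL1, and 5.15 in Y220C. The part of IL1A and IL1B in the chemokine levels was not tested. CCL2, the monocyte chemokine, did not pass the filter, since it read 5.59 in Y220C and was listed at 0 in the other 12 lines, and it is named here after its values were seen.

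Below IL6 and LIF, 10 of 13 genes of the STAT3 branch were tested and 0 passed. SOCS3, the feedback inhibitor induced by STAT3, averaged 2.11 ± 1.23 (SD, n = 10) in mutants and read 0 in WT, 1.40 in WTKD and 0 in the library labelled WTOE (adjusted p = 0.932, limma). FOSL1 and PIM1 differed by -0.87 and 0.85. CEBPD, an acute phase transcription factor, was 3.64 ± 0.99 (SD, n = 4) in contact and 5.00 ± 0.86 (SD, n = 6) in structural lines (adjusted p = 0.96, limma), and was highest in Y220C at 6.16. SOCS3 and STAT3 differed by -1.20 and 0.93 between these classes. In Y220C, the line highest in IL6, none of the 10 genes was 2 or more above the median of the other lines. Of all tested genes 5.28% were that high there, so that a count of 0 among 10 is close to the background. SOCS3 read 2.82 in Y220C.

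Binding of V5-tagged p53 was then read at the same genes. The lists held 11277 summits in WTOE, 25309 in R273H, 2145 in Y234C, 1575 in Y220C and 733 in R273C, each from 1 library called against input DNA. A promoter was taken as 2500 bases upstream to 100 downstream of any annotated start. A promoter was counted when a peak overlapped it, wherever the summit lay. None of the 9 tested members had such a peak in any list, and neither did CXCL5. Among 14786 tested genes with an annotated start, the share with one was 6.72% in WTOE, 2.68% in R273H, 1.19% in Y234C, 0.25% in Y220C and 0% in R273C. At these shares the absence of a peak from 9 promoters is close to the background in every list.

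Within 50 kb of a start, 3 summits were found. In WTOE 1 lay downstream of LIF (chr22:30221271-30221553, fold enrichment 3.74), 25.3 kb from its start and outside any annotated gene. In R273H 1 lay 27.7 kb upstream of LIF (chr22:30274385-30274670, fold enrichment 3.62), also between genes. The other R273H summit lay 22.2 kb upstream of TNFAIP3 (chr6:137844871-137845302, fold enrichment 3.62), in an intron of the lncRNA gene WAKMAR2. LIF was listed at 0 in both lines, but also in 8 of all 13, and TNFAIP3 was listed at 0 in R273H. The share of all genes with a summit within 50 kb was not counted, so these 3 summits have no background beside them. Around the CXC cluster the nearest summit of Y220C, the line in which most of these genes were highest, was 4249 kb from CXCL2 and 4479 kb from CXCL1. The nearest of any list was that of WTOE, 307 kb from CXCL2. How far genes in general lie from a summit in each list was not counted either.

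**Figure D5:**
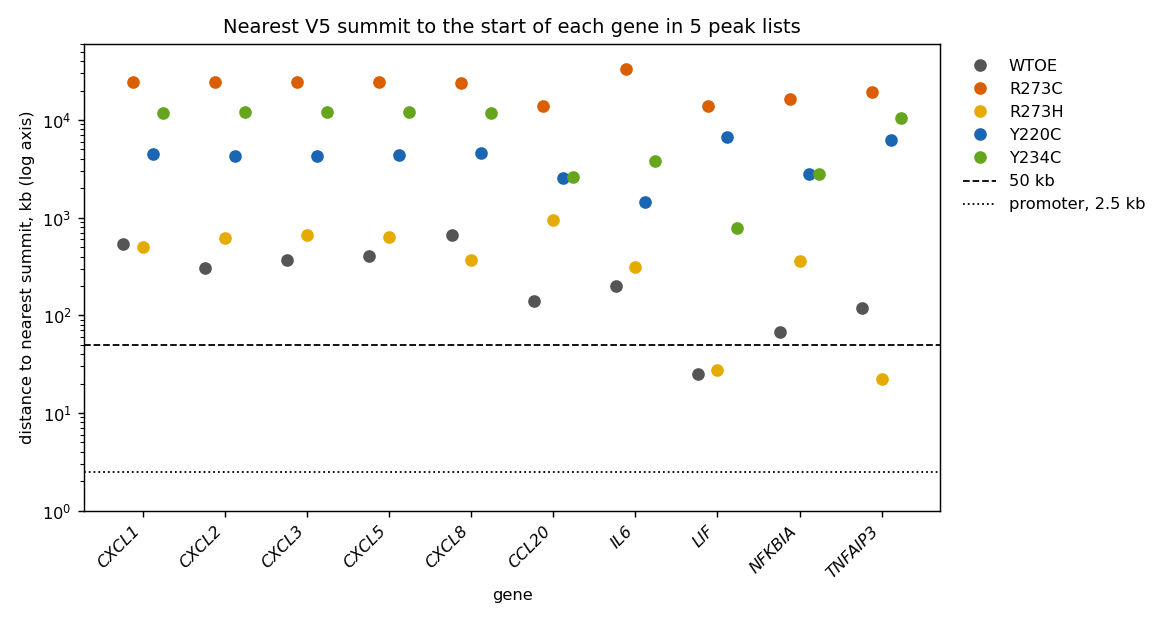
Distance in kb, on a log axis, from the start of each of the 10 genes to the nearest V5 summit in each of 5 peak lists (colours), with dashed and dotted lines at 50 kb and at the 2.5 kb promoter limit. No point lies below the promoter line, and 3 points, LIF in WTOE and R273H and TNFAIP3 in R273H, lie below 50 kb.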

How the data were processed

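RNA of 13 MCF10A lines was sequenced as 75-base read pairs after isothermal amplification of cDNA. The authors aligned reads with STAR to Ensembl GRCh38, counted them per gene, left out mitochondrial RNA, scaled to TPM and deposited the values as log2 with a pseudocount of 1. The study's methods describe marking duplicates and do not say that they were removed from these values. Each library sums to 1000000 TPM, so counts, depth and counting intervals are unknown. For the peak lists the authors used Bowtie2 2.1.0, SAMtools 1.7 and MACS2 2.1.2.20181017 against input DNA on GRCh38. The deposited fold enrichment is a ratio of ChIP to control signal, and the deposited -log10 p and q values and score come from MACS2. All lists were called per line.

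Lines were grouped by the mutation in their titles, and contact or structural type by residue. limma 3.58.1 (R 4.3.3, two-sided, lmFit and eBayes without trend) was fitted to 14884 genes, those reaching a log2(TPM+1) of 1 in 3 or more lines, as a count model could not be used. It was tested on simulated data. The fits compared 10 mutants against 3 controls and, in mutants only, 4 contact against 6 structural lines. Members, gene lists and tests were chosen with earlier results of these data known. Named from each list were genes past an adjusted p of 0.05 or, with none, the 3 tested genes of largest difference. Named for likeness were the 3 genes of highest r to each member, and the 5 to the 4 CXC genes. Promoter windows came from RefSeq (GRCh38.p14), and gene and exon positions from GENCODE on GRCh38. Python 3.11.15 with pandas 2.3.3, scipy 1.17.1, biopython 1.88 and matplotlib 3.10.9 did the rest. Motifs, distances and levels carry no test. The level of the targeted gene is not reported here. Alternatives are given at the end.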

Additional observations from a re-analysis of the deposited data

Results flagged for a closer look

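Members were searched for a mutant line standing apart from the others of its group by Dixon's test, among all 10 mutants, the 4 contact and the 6 structural lines. Of 28 such groups with any spread, 5 held a flagged line. Chance flags about 1 in 20 groups of continuous values, but in 3 of the 5 a single value stood over zeros, which fixes the outcome, so that the count cannot be read against that rate. CXCL3 in Y220C, at 5.07, was far above the next mutant, at 2.16. CXCL5 in Y220C, at 0.90, was the only value above 0, both among the 10 mutants and among the 6 structural lines. CCL20 in R248Q, at 1.79, was far below the next mutant, at 4.56. LIF in R248W, at 2.19, was the only contact line above 0. CXCL3 was listed at 0 in 5 of the 10 mutants, and CXCL5 did not reach the level required for testing. The cause of these departures was not tested.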

How the results depend on the processing

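No member passed an adjusted p of 0.05 under any setting run, and the lowest adjusted p was 0.543 for mutants against controls and 0.673 for contact against structural lines. Over all tested genes the calls for mutants against controls numbered 3 in the reported fit and ran from 0 (a level of 1 in at least 6 lines, or without R248W, Y163C, H179R, Y220C or G245S) to 11 (without WTKD), and those for contact against structural lines from 0 to 5 (pseudocount 0.1). Of 186 and 168 differences under alternatives, 9 and 11 changed sign. For mutants against controls, LIF turned to 0.038 with quantile normalization and to 0.049 without R273H and Y234C. With genes detected as a covariate CXCL2 turned to -0.305 and CXCL8 to -0.146. With single lines left out in turn the difference ran from -0.666 to 1.087 for CXCL2, from -0.476 to 1.346 for CXCL8, from -1.156 to 0.535 for IL6 and from -0.412 to 0.612 for LIF. For contact against structural lines, LIF turned to 0.001 without R273H and Y234C. With single lines left out it ran from -2.319 to 0.04 for CXCL1, from -0.705 to 0.413 for CXCL3, from -1.244 to 0.26 for CXCL8 and from -0.654 to 0.146 for LIF. The cause was not tested. No change of sign was seen, in the settings that could be run for each, for TNFAIP3, NFKBIA and CCL20 in both comparisons, for CXCL1 and CXCL3 in the first and for CXCL2 and IL6 in the second, but their sizes moved. With single lines left out, the first difference ran from 0.669 to 3.417 for CCL20, from 0.798 (without Y220C) to 1.362 for CXCL3, from -0.466 to -0.06 for NFKBIA (without WTOE and WTKD) and from -0.871 to -0.425 (without R273H) for TNFAIP3. The second ran from -1.805 to -0.043 for CCL20, from -2.446 to -0.602 for CXCL2, from -1.98 to -1.022 (without Y220C) for IL6, from -0.52 to -0.188 for NFKBIA (without R273C and Y220C) and from -1.818 to -0.844 (without R273H) for TNFAIP3. CXCL3, IL6 and LIF have no value with a level of 1 in at least 6 lines, which they do not reach. Settings were no filter, a level of 1 in at least 6 lines, a pseudocount of 0.1, quantile normalization, rescaling without the 50 highest genes, a trended prior, the number of genes detected as a covariate, leaving out R273H and Y234C, leaving out each line and, for contact against structural lines, 3 classes over 13 lines. Y220C held the highest level of 5 of 9 tested members, and of 4 after quantile normalization or rescaling. Members at least 2 higher there numbered 5, 5 and 6. The median r of 0.44 was 0.41 without R273H and Y234C and, added after the data were seen, 0.27 without Y220C. No promoter peak appeared with 1000 bases upstream or with a -log10 q of at least 2. With 1 library per line and no counts, the error of a single level is unknown. No paired analysis was possible because the labels match no mutant line to a control line.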
